A study of Mus musculus with 4 samples.

Results

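The sterol, fatty acid and LXR genes described here are 39 genes chosen by symbol from a table of 54532 genes. They are 7 genes of the mevalonate pathway, 11 enzymes that build squalene and the sterol rings, 6 genes of the SREBP system and sterol transfer, 9 genes of fatty acid synthesis and desaturation, the receptor gene Nr1h3 with 4 LXR target genes, and Ch25h. Their RNA was measured by sequencing of polyadenylated transcripts in macrophages derived from bone marrow, a primary cell grown out of marrow progenitors in culture. The marrow came from C57BL/6 mice aged 6 to 8 weeks and was cultured for 6 days with 20% medium conditioned by L929 cells, a source of the growth factor CSF-1, and 10% serum, which carries lipoproteins. All 4 groups carried floxed Fbxw7 alleles (FBXW7f/f), and the titles and genotype tags differ on which also carried LysM-cre. Read with the stated design, the KO titles are the LysM-cre groups and the WT titles are floxed alone. LysM-cre is a Cre gene in the lysozyme locus Lyz2 that is active in myeloid cells; it may act in only a share of them. One group of each title was untreated and one had lipopolysaccharide (LPS), the bacterial ligand of TLR4, for 3 h. Each of the 4 groups held 1 library, and the sources used here do not say whether a library pooled several mice.

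Cholesterol and unsaturated fatty acids are made by enzymes whose genes are switched on by the SREBP transcription factors. SREBPs are held in the endoplasmic reticulum by SCAP and the INSIG proteins while sterols are plentiful, and are cleaved and sent to the nucleus when sterols run short. LXR receptors answer the opposite state: bound by oxysterols, they switch on genes that export cholesterol, such as Abca1 and Abcg1, and Mylip, which encodes a ubiquitin ligase that limits lipoprotein uptake. In macrophages this balance sets how lipid from engulfed cells and lipoproteins is stored or released, and 25-hydroxycholesterol, the product of Ch25h, restrains SREBP processing. FBXW7 gives its SCF ubiquitin ligase the choice of substrate, and nuclear SREBPs are among the proteins it is known to mark for degradation.

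Upstream sequences of 5 of the genes are shown because their transcripts, or those of their groups, carry the results that follow. Hmgcs1 and Nsdhl stand for the sterol enzymes, and Insig1, Mylip and Ch25h are the 3 genes that passed the test for LPS. The letters are RefSeq's for GRCm38.p6, 5′ to 3′ on the gene's strand, and end before the transcription start. Capitals mark the sterol regulatory element (SRE) letters TCACNCCAC and the CCAAT box bound by NF-Y, which reads ATTGG on the other strand. The stretches are chr13:119690101-119690350 on the plus strand for Hmgcs1, chrX:72918271-72918520 on the plus strand for Nsdhl, chr5:28071162-28071362 on the plus strand for Insig1, chr13:45389492-45389741 on the plus strand for Mylip and chr19:34475149-34475398 on the minus strand for Ch25h.
Hmgcs1: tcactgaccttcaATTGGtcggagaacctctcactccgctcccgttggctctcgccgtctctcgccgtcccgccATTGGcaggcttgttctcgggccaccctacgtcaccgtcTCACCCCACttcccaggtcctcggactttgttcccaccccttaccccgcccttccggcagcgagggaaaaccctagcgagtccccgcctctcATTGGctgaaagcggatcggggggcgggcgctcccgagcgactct
Nsdhl: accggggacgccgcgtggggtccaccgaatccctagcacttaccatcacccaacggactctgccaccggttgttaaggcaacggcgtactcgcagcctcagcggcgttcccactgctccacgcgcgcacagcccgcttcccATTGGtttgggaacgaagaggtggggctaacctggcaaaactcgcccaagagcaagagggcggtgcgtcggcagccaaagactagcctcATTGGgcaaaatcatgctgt
Insig1: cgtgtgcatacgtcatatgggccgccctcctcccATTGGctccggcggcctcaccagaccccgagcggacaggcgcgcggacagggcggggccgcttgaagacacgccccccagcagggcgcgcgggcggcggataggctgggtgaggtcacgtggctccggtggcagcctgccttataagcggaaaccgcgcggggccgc
Mylip: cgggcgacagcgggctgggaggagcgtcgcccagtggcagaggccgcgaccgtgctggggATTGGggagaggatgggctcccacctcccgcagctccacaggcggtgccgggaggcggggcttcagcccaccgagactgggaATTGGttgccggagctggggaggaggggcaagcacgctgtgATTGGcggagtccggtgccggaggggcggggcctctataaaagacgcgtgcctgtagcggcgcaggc
Ch25h: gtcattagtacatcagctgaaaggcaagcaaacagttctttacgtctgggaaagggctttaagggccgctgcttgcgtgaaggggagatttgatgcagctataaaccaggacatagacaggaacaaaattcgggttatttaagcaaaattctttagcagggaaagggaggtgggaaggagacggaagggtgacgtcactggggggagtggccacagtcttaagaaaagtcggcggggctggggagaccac
The Hmgcs1 stretch holds an SRE match whose first base lies 137 bases before the start, with ATTGG on both sides of it. The stretches of Nsdhl, Insig1 and Mylip hold ATTGG and no SRE match, and that of Ch25h holds neither.

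Searched over 300 bases (250 before to 50 after each start, both strands), the promoters of 31 of the 39 genes were in the RefSeq table, and the other 8 were not searched. CCAAT was found in 22 of these 31 genes (71.0%), against 41.1% of the 27025 genes in the table, and in 14 of the 15 sterol enzyme genes searched. The SRE letters were found in 1 of 31, Hmgcs1, against 1.44% of all genes. The LXR element, read as AGGTCA followed after 4 bases by AGGTCA, and the shorter GGTCA pair contained in it (GGTCA, 4 bases, GGTCA), were found in 0 of 31, against 0.0148% and 0.0518% of all genes. The interferon element, GAAA followed after 2 bases by GAAA, was found in Ebp alone of the 31 genes searched, against 3.99% of all genes. A match is a run of letters, not a measured binding site, and known elements of several of these genes lie outside such windows or differ by a base.

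Before the results, facts about the libraries that bear on every comparison are given. Total counts were between 17610372 and 23835940. The genotype tags went against the titles, giving both untreated libraries as floxed without Cre and both LPS libraries as floxed with Cre, and the titles were followed. By the tags, LPS and Cre cannot be told apart, and no LPS effect below could then be read as one of LPS alone. Effects across both titles, those of Ch25h, Insig1 and Mylip included, need 1 library with Cre and 1 without in each treatment, as the titles give. LPS ratios within 1 title can be read as LPS alone only where the 2 libraries of that title share a genotype. Fbxw7 had 395 and 477 counts, or 17.9 and 17.2 CPM (normalized counts, scaled for library size by TMM), in the untreated libraries titled WT and KO. Its KO to WT ratio was 0.963 (0.841 to 1.10, a 95% counting interval). After LPS it had 170 and 191 counts, or 9.90 and 11.7 CPM, a KO to WT ratio of 1.18 (0.955 to 1.46). It was thus not detectably lower in the KO titles. It was lower in both LPS libraries, which the tags give as carrying Cre, at 0.553 (0.459 to 0.663) and 0.678 (0.570 to 0.803) times the untreated library of the same title. Gene counts cannot show the loss of an exon. Lyz1, the neighbour of the lysozyme gene that holds the Cre insertion, was at 2.86 and 32.9 CPM in the untreated WT and KO titles, and at 33.1 and 2.63 CPM in the LPS libraries titled WT and KO. It thus put the untreated KO title beside the LPS WT title. Lyz2, the gene that holds the Cre insertion, was at 15253 and 8711 CPM in the untreated WT and KO titles. In the LPS libraries titled WT and KO it was at 9917 and 18238 CPM, so it was lower in the libraries where Lyz1 was high. Whether the titles are crossed was not tested. If the LPS titles were crossed, every KO to WT ratio after LPS given below would be inverted. The LPS ratios within a title would then pair other libraries. The differences of LPS ratios between titles and the effects of titled genotype would not hold as given either. Macrophage markers were all detected and summed to between 15733 and 27366 CPM. Lyz2 was the largest part of that sum, at 8711 to 18238 CPM. The 8 marker lists of other cell types summed to at most 31.6 CPM (B cells) in any library; among the other 7 the highest sum was 13.2 CPM (dendritic cells). The dendritic cell sum was at most 2.28 CPM untreated and at least 9.36 CPM after LPS, and the T cell sum at most 0.651 and at least 3.20 CPM. Each was carried by 1 gene: Xcr1 was at most 0.904 CPM untreated and at least 8.81 CPM after LPS, while Zbtb46 and Clec9a were lower in both LPS libraries, and Lck was at least 3.09 CPM after LPS, while Cd3e, Cd3d, Cd3g and Cd8a had 0 to 4 counts in each library. Their part in the LPS results was not tested. Of the adipocyte and hepatocyte markers, cells that also run these pathways, 3 of 6 (Adipoq, Apoa1 and Ttr) were at 0 in all 4 libraries and the list summed to at most 0.233 CPM. All 6 LPS response genes used as a check, among them Il6 and Tnf, rose in edgeR's quasi-likelihood test. In bulk RNA, fewer cells making a transcript and less transcript per cell cannot be told apart.

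**Figure D1:**
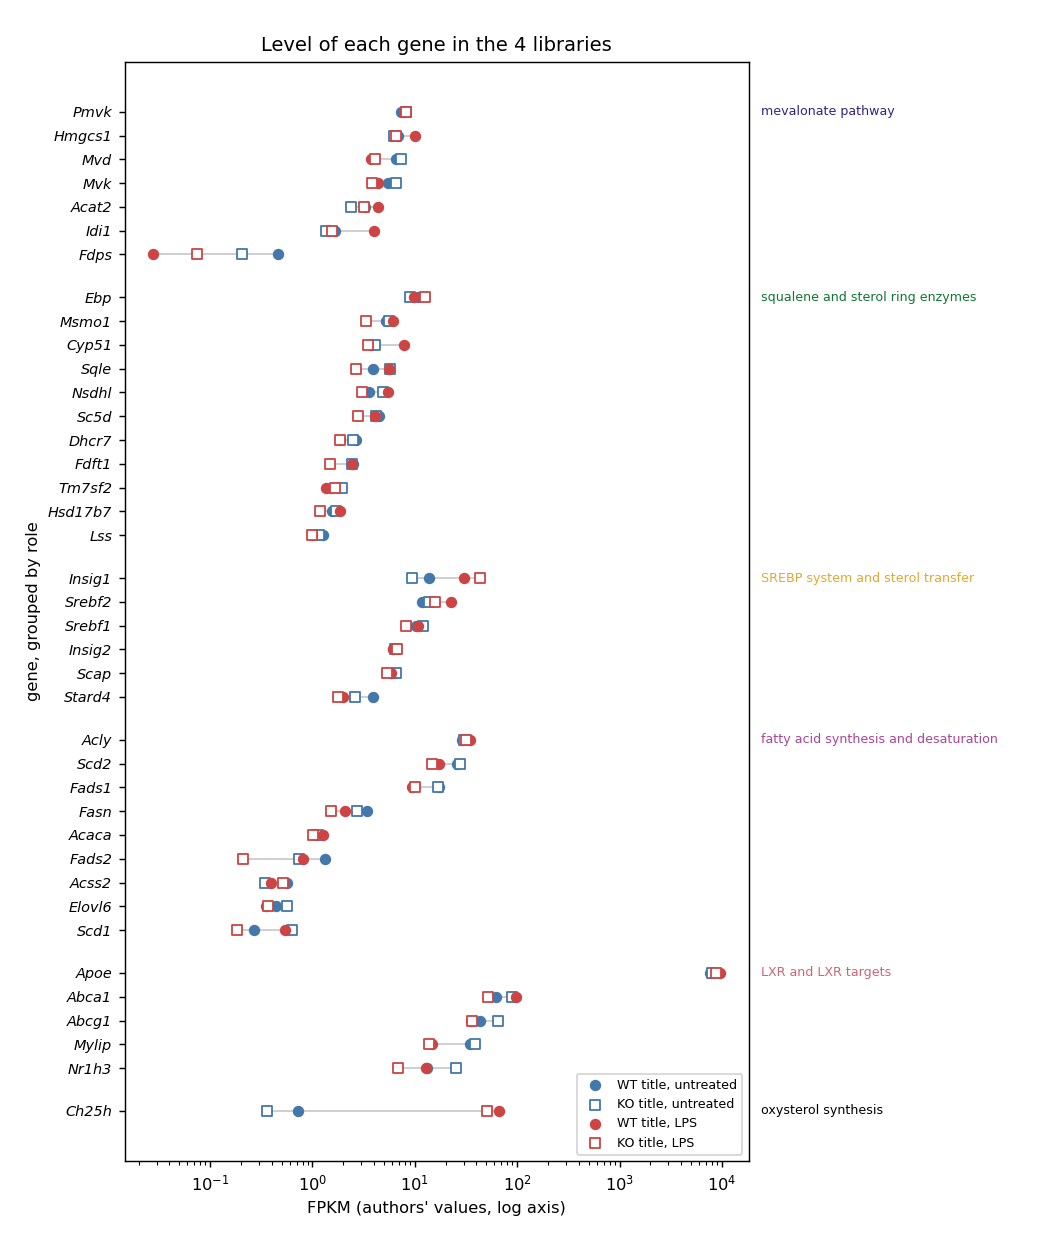
Level of each of the 39 genes in each library in the authors' FPKM (log axis), grouped by role and ordered within a role by the mean of the 4 libraries; filled circles are the WT title, open squares the KO title, blue is untreated and red is LPS, with 1 library per symbol. Apoe stands at a mean of 8524 FPKM and Fdps at 0.194, and the red and blue symbols of Ch25h, Insig1 and Mylip are apart.

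Compared per length in FPKM, the 39 genes ranged over several orders of magnitude, as the plot of levels by role shows. Apoe, which encodes the apolipoprotein that carries exported cholesterol, was the most abundant at a mean of 8524 FPKM (7584 to 9682 over the 4 libraries). Abca1, encoding the transporter that loads cholesterol onto apolipoprotein A-I, had 75.3 FPKM (51.8 to 98.1), and Abcg1, which exports cholesterol to HDL, 45.3 FPKM (35.5 to 65.1). The highest of the fatty acid genes was Acly, which makes cytosolic acetyl-CoA, at 31.5 FPKM, and the highest of the SREBP system was Insig1 at 24.2 FPKM. Sterol enzymes were lower. Ebp, a sterol isomerase, led the squalene and ring enzymes at 10.5 FPKM, and Pmvk (phosphomevalonate kinase) led the mevalonate genes at 7.90 FPKM. The lowest means were those of Fdps (farnesyl diphosphate synthase, 0.194 FPKM) and of the stearoyl-CoA desaturase Scd1 (0.407 FPKM), whose paralog Scd2 stood at 21.4 FPKM. Scd1 and Scd2 are near copies, and how the authors counted reads shared by both is not stated in those sources, which leaves their split uncertain. Of the 39 genes, 14 share exonic bases with another annotated gene, and the share exceeds 20% only for Fdps (26.7% with Gm43738).

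Across both titles, the LPS effect that passed the test was a rise of Ch25h and Insig1 and a fall of Mylip. Ch25h (cholesterol 25-hydroxylase, ENSMUSG00000050370, chromosome 19, 34473786 to 34475135, minus strand) had 22 and 14 counts in the untreated libraries titled WT and KO, and 1545 and 1094 counts in the LPS libraries titled WT and KO. These amounted to 0.998 and 0.506 CPM untreated and to 90.0 and 66.9 CPM after LPS, so both LPS libraries stood far above both untreated ones. Its LPS effect was 6.77 ± 0.30 on the log2 scale (± gives the SE that the F test implies, 4 libraries) with an adjusted p of 0.00438 in edgeR's quasi-likelihood test. Its overlap with the antisense gene Gm26902 covers 11.5% of its exonic bases.

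Insig1 (ENSMUSG00000045294, chromosome 5, 28071363 to 28078662, plus strand), whose protein holds SCAP and SREBP in the endoplasmic reticulum and which is itself an SREBP target gene, was at 43.0 and 30.3 CPM in the untreated libraries titled WT and KO. After LPS it was at 92.8 CPM in the WT title and 132 CPM in the KO title, both above both untreated values. Its effect was 1.65 ± 0.32 log2 units with an edgeR adjusted p of 0.0343. Scaled by library totals instead of TMM, the effect was 1.08 and the adjusted p 0.0720, so the call rests on the scaling.

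Mylip (ENSMUSG00000038175, chromosome 13, 45389742 to 45412022, plus strand), the LXR target that limits lipoprotein uptake, was at 115 and 129 CPM in the untreated libraries titled WT and KO and at 47.3 and 43.2 CPM in the LPS libraries. The LPS values of each title were below both untreated values. Its effect was −1.39 ± 0.21 log2 units with an edgeR adjusted p of 0.0199.

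In the additive model of title and treatment over all genes, 2 of the 39 rose, against 9.35% of 13989 genes tested, and 1 of 39 fell, against 5.14%. Both shares lay below that background, but counts of 2 and 1 are too few to be read as a trait of these genes. At an unadjusted p under 0.05, 2 were higher (5.13%) and 7 lower (17.9%), against 17.0% and 16.04% of all genes tested, so the share lower was near the background and the share higher below it. The median effect of the 39 was −0.27 log2 units, with 12 above 0 and 27 below, beside −0.05 over all genes tested, with 6664 above and 7325 below. Scaled by library totals, the median of all genes shifted by −0.57 and 36 of the 39 lay below 0, so the median effects given by role next hold relative to that shift; that of the mevalonate genes changes sign. With 1 residual degree of freedom, a gene's own spread in this model is how far its 4 libraries depart from additivity. edgeR draws that spread toward a trend over all genes, so each SE and p also rests on other genes. Fads1, for example, differed between titles by 0.06 log2 units in its LPS ratio, with an SE of 0.20. Sqle differed by −1.67, with an SE of 0.44. With treatment as the only term, the count that fell was 6 (Fads1, Fasn, Fdps, Mvd, Mylip and Scd2), while the count over all genes went from 719 to 2146. Without the LPS library titled KO, that fit had 4 genes rising, Cyp51 and Idi1 beside Ch25h and Insig1. Its LPS group is then the 1 library titled WT, assumed to vary as the 2 untreated libraries do, so it adds no check on that library. The authors' deposited table, which compares pairs of libraries, gave adjusted p-values under 0.05 to Ch25h, Insig1 and Mylip in both LPS comparisons. It also gave them to Idi1 (higher) and Fdps (lower) in the WT title only, and to Sqle, Scd1 and Nr1h3 (all lower) in the KO title only.

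**Figure D2:**
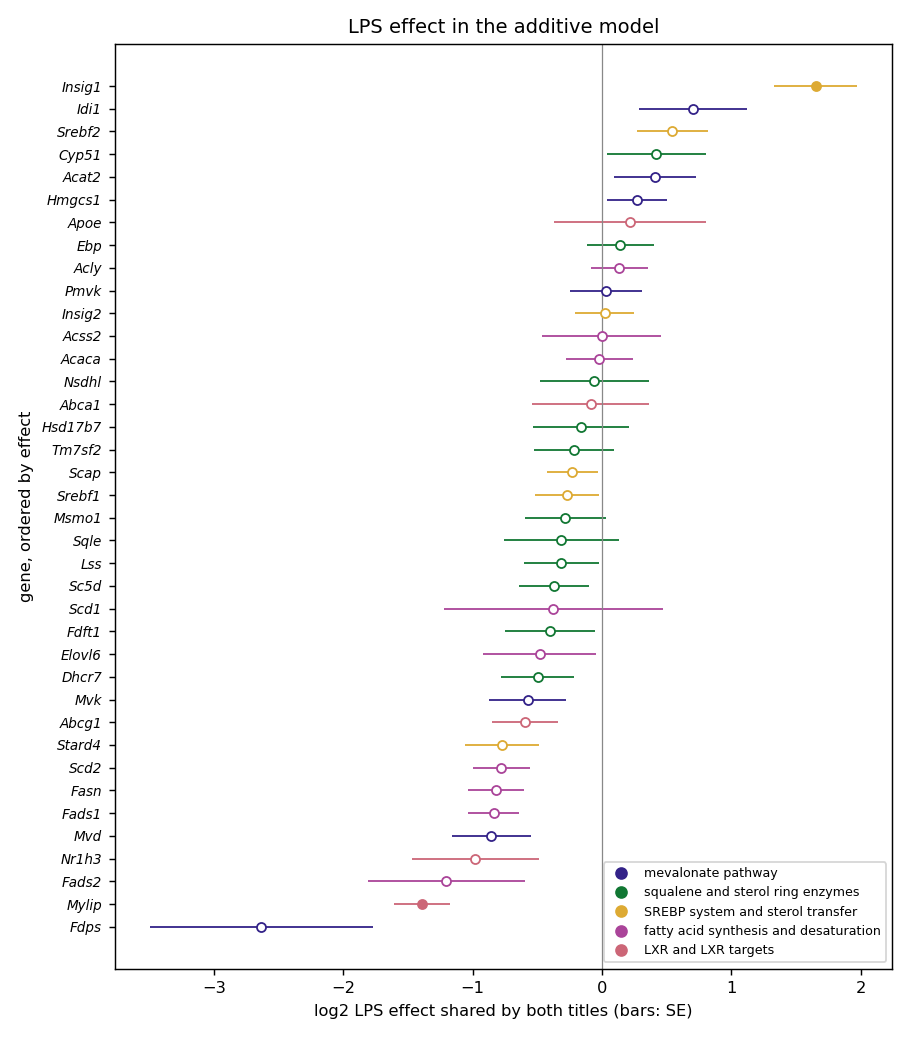
LPS effect shared by both titles for 38 of the genes (log2 scale, additive model of title and treatment, bars ± SE from the F test), ordered by effect and coloured by role; filled symbols passed an adjusted p of 0.05 and open symbols did not. Ch25h, at 6.77, lies beyond the axis and is left out; Insig1 at 1.65 and Mylip at −1.39 are the 2 filled symbols.

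Setting aside the titles, both LPS libraries lay above both untreated libraries for 4 of 38 genes with a mean of at least 1 CPM (Srebf2, Insig1, Apoe and Ch25h), against 34.6% of 12326 genes. Both lay below for 15 of 38, against 38.1%. The share above lay under that background and the share below was near it. Scaled by library totals the 2 counts were 2 and 28. With a gap of at least 1.5-fold between the groups they were 2 and 4 (Mvd, Scd2, Fads1 and Mylip). No share over all genes under these settings is given here, so these counts cannot be set against the shares above.

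By role, the fatty acid genes had a median LPS effect of −0.48 log2 units, with 8 of 9 below 0 and 0 of 9 passing the test. Over all genes tested, 7325 of 13989 were below 0. Acss2 (−0.002) and Acaca (−0.02), counted among the 8, lay near 0. Fads1, the delta-5 desaturase gene, was at 60.3 CPM in both untreated libraries and at 32.2 and 33.7 CPM in the LPS libraries titled WT and KO. Its effect was −0.84 ± 0.20 with an edgeR adjusted p of 0.0538, just outside the threshold. Scd2 was at 144 and 157 CPM untreated and at 92.9 and 78.8 CPM after LPS in the WT and KO titles, without overlap, with an effect of −0.78 ± 0.22 and an edgeR adjusted p of 0.0823. Fasn, the fatty acid synthase gene, followed the same order, at 38.5 and 31.2 CPM untreated and at 22.5 and 16.3 CPM after LPS (−0.82 ± 0.22, edgeR adjusted p = 0.0698). Acly did not follow it, at 156 and 167 CPM untreated and at 183 and 163 CPM after LPS, where the groups overlapped. Acaca (acetyl-CoA carboxylase) overlapped as well, between 16.7 and 21.5 CPM. Elovl6, a fatty acid elongase gene, was at 2.90 and 3.72 CPM untreated and at 2.27 and 2.33 CPM after LPS.

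Among the LXR genes the median LPS effect was −0.60 log2 units, and 1 of 5, Mylip, passed. Abcg1 was at 182 and 275 CPM untreated and at 144 and 145 CPM after LPS in the WT and KO titles, so its groups did not overlap (−0.60 ± 0.25, edgeR adjusted p = 0.178). Apoe was at 16554 and 17793 CPM untreated and at 20616 and 18340 CPM after LPS. The Apoe groups did not overlap either, in the opposite direction (0.22 ± 0.59, edgeR adjusted p = 0.822), though with library totals both LPS values were below both untreated ones.

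The SREBP genes themselves did not pass the test. Srebf2, encoding the SREBP that mainly drives sterol genes, was at 86.9 and 103 CPM untreated and at 163 and 111 CPM after LPS in the WT and KO titles (0.54 ± 0.27, edgeR adjusted p = 0.234). Srebf1, encoding the SREBP tied to fatty acid genes, was at 58.5 and 71.1 CPM untreated and at 60.7 and 44.9 CPM after LPS, with overlap. Insig2 was between 21.4 and 23.0 CPM in all 4 libraries and Scap between 38.7 and 50.3 CPM. Stard4, a sterol transfer protein gene, was at 22.0 and 15.1 CPM untreated and at 11.2 and 9.67 CPM after LPS.

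The 7 mevalonate genes and 11 squalene and ring enzymes had median LPS effects of 0.03 and −0.28 log2 units (−0.54 and −0.86 with library totals), and 0 of 18 passed the test, with edgeR adjusted p between 0.108 and 0.950. At an unadjusted p under 0.05, 2 of the 18 were lower, Mvd and Fdps, against 16.04% of all genes tested. Mvd (mevalonate diphosphate decarboxylase) was at 12.4 and 14.1 CPM untreated and at 6.93 and 7.34 CPM after LPS in the WT and KO titles, without overlap. Fdps had 44 and 25 counts untreated and 2 and 5 counts after LPS, too few for the 2-fold rule used next.

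Within each title, a gene was called where the 2 libraries differed at least 2-fold, the 95% counting interval left out no change and the mean was at least 1 CPM, which 38 of the 39 genes reached (all but Fdps). With 1 library per group there is no replicate check, so these comparisons have no p-value, and the intervals in parentheses cover counting error only. In the libraries titled WT, 4 of 38 genes were higher after LPS, against 15.4% of 12326 genes, and 1 was lower, against 15%. The higher genes were Ch25h (90.2-fold, 59.3 to 144), Idi1, the isopentenyl diphosphate isomerase gene (2.35-fold, 1.89 to 2.93), Insig1 (2.16-fold, 1.99 to 2.34) and the lanosterol demethylase gene Cyp51 (2.08-fold, 1.82 to 2.37). Mylip was 2.42-fold lower (2.24 to 2.62). The median log2 ratio was −0.03, beside −0.01 over all genes, and the 33 genes not called had ratios from 0.507 to 1.99. Both called shares lay below the background.

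In the libraries titled KO, 2 of 38 were higher after LPS, against 14.6% of all genes, and 5 were lower, against 17.8%. Ch25h was 132-fold higher (78.5 to 243) and Insig1 4.35-fold higher (4.01 to 4.72). The lower genes were Nr1h3, which encodes LXRα (3.95-fold, 3.48 to 4.50), Mylip (2.99-fold, 2.75 to 3.24), the squalene epoxidase gene Sqle (2.29-fold, 1.98 to 2.65), Scd1 (3.71-fold, 2.10 to 7.07) and Fads2, the delta-6 desaturase gene (3.78-fold, 1.46 to 12.4). The last 2 rest on few reads, with 88 counts of Scd1 untreated and 14 after LPS, and 32 and 5 of Fads2. The median log2 ratio was −0.62, with 30 of 38 below 0, beside −0.07 over all genes, of which 53.1% were below 0. Both called shares lay below the background.

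These splits depend on how the libraries are scaled. Scaled by library totals instead of TMM, the median of all genes shifted by −0.60 log2 units in the WT title and −0.46 in the KO title, and the share of all calls that were higher was 22.2% instead of 50.7% and 22.6% instead of 45.0%. The members called were then 1 higher and 9 lower in the WT title, and 2 higher and 20 lower in the KO title. Over all genes, 1172 were then higher and 4116 lower in the WT title, and 1146 and 3934 in the KO title. The number of genes tested with that scaling is not given here, so no share is set beside the members. The shares said above to lie below the background are therefore those with TMM, and they rest on few genes.

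**Figure D3:**
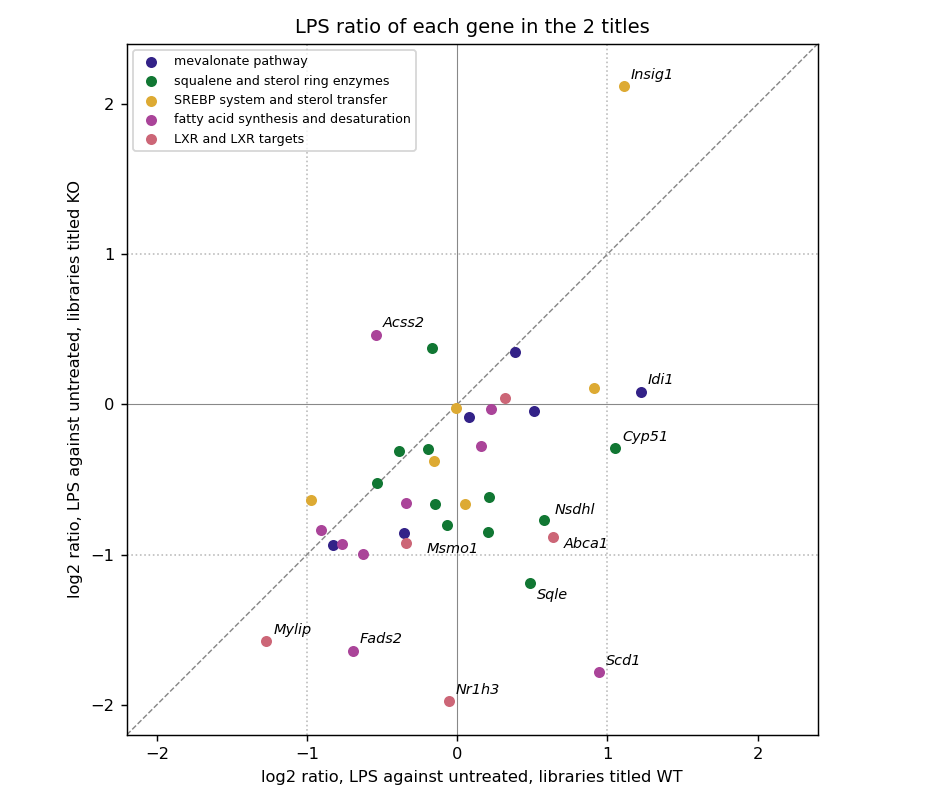
Log2 ratio of LPS to untreated (prior count 2) in the libraries titled WT (horizontal) and KO (vertical) for 37 genes, coloured by role; dotted lines mark 2-fold, the dashed line equal ratios, and 1 pair of libraries gives each axis. Ch25h is beyond both axes and Fdps was not tested. Genes below the dashed line had a less positive ratio in the KO title, among them Sqle, Cyp51, Nsdhl, Scd1, Nr1h3 and Abca1, while Insig1 and Acss2 lie above it.

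The LPS ratio differed between titles by at least 2-fold, with a 95% counting interval that left out 0, for 10 of 38 genes. It was less positive in the KO title for 8, or 21.1%, against 10.3% of all genes, and more positive for 2, or 5.26%, against 7.76%. The median difference (KO title minus WT title) was −0.34 log2 units, with 30 of 38 below 0, beside −0.06 over all genes, of which 54.0% were below 0. The share with a less positive ratio lay above its background, the share with a more positive one below its own. This difference was not tested against replicates, since each ratio comes from 1 pair of libraries.

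Sterol enzymes made up 5 of the 8, with TMM scaling. Library totals shifted the median LPS ratio by −0.60 log2 units in the WT title and −0.46 in the KO title, so such differences move toward positive. Of the 5, Msmo1 and Idi1 lay closest to the limit of 1 log2 unit, and their calls may rest on the scaling. Sqle was at 22.2 and 31.0 CPM in the WT title, untreated and with LPS, and at 32.9 and 14.4 CPM in the KO title (difference of log2 ratios −1.67, −1.94 to −1.40). Cyp51 was at 16.6 and 34.6 CPM in the WT title and 18.5 and 15.1 CPM in the KO title (−1.34, −1.63 to −1.05). For both genes the LPS library of the WT title was above its untreated library and that of the KO title below it. Nsdhl, encoding a sterol dehydrogenase, was at 10.4 and 15.6 CPM in the WT title and 14.4 and 8.38 CPM in the KO title (−1.35, −1.72 to −0.97). Msmo1, the methylsterol monooxygenase gene, was at 32.6 and 37.6 CPM in the WT title and 35.8 and 19.8 CPM in the KO title (−1.06, −1.29 to −0.82). These 2 genes also had ratios on opposite sides of even in the 2 titles. Idi1 was at 5.94 and 14.0 CPM in the WT title and 4.95 and 5.26 CPM in the KO title (−1.14, −1.63 to −0.64), so only its WT title ratio was far from even.

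The other 3 were Nr1h3, Abca1 and Scd1. Nr1h3 was at 33.7 and 32.4 CPM in the WT title, untreated and with LPS, and at 66.2 and 16.8 CPM in the KO title (−1.92, −2.16 to −1.68). Abca1 was at 651 and 1012 CPM in the WT title and 965 and 523 CPM in the KO title (−1.52, −1.57 to −1.47). Its 2 higher values were thus those of the untreated KO title and the LPS WT title, the same libraries in which Lyz1 was high, and the part of that pattern in these differences was not tested. Sqle, Cyp51, Nsdhl and Msmo1 had their 2 highest values in those same libraries. Scd1 had the same order at low counts, with 29 and 45 counts in the WT title and 88 and 14 counts in the KO title (−2.73, −3.74 to −1.71). Insig1 went the other way (1.01, 0.85 to 1.17), as did Acss2, the cytosolic acetyl-CoA synthetase gene, at 5.81 and 3.96 CPM in the WT title and 3.65 and 5.08 CPM in the KO title (1.01, 0.42 to 1.60).

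Between titles without LPS, few of the genes differed. Scd1 alone of 38 was higher in the KO title (2.42-fold, 1.57 to 3.82), against 3.16% of all genes, and 0 of 38 were lower, against 2.03%. The 37 genes not called had KO to WT ratios between 0.507 and 1.96. Nr1h3 was the nearest to the threshold among the abundant genes, at 1.96 times the WT title level (1.80 to 2.14), followed by Abcg1 at 1.51 (1.45 to 1.57) and Abca1 at 1.48 (1.45 to 1.51). All 5 LXR genes had log2 ratios above 0, with a median of 0.57, while 6661 of 12326 genes tested were above 0. The median of the 38 was 0.10, beside 0.03 over all genes. With library totals 48.4% of all calls were higher in the KO title, against 60.9%, while the counts of these genes were the same.

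After LPS, 0 of 38 were higher in the KO title, against 3.42% of all genes, and 5 were lower (13.2%), against 4.81%, a share above the background. The lower genes were Idi1 (2.66-fold, 2.07 to 3.44), Cyp51 (2.29-fold, 1.97 to 2.67), Sqle (2.16-fold, 1.85 to 2.53), Scd1 (3.06-fold, 1.65 to 6.03) and Fads2 (4.0-fold, 1.47 to 13.6, from 21 and 5 counts). Abca1 (1.94-fold lower, 1.89 to 1.99), Nr1h3 (1.93-fold, 1.67 to 2.24), Msmo1 (1.90-fold, 1.66 to 2.17) and Nsdhl (1.86-fold, 1.51 to 2.30) lay just short of the threshold. The median log2 ratio of the 38 was −0.30, beside −0.02 over all genes. On the log2(FPKM + 1) scale, which understates low genes, 0 were lower by 2-fold. In the authors' deposited table none of the 39 had an adjusted p under 0.05 for KO against WT, with or without LPS, and the values for Idi1, Cyp51 and Sqle after LPS were 0.104, 0.199 and 0.290.

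**Figure D4:**
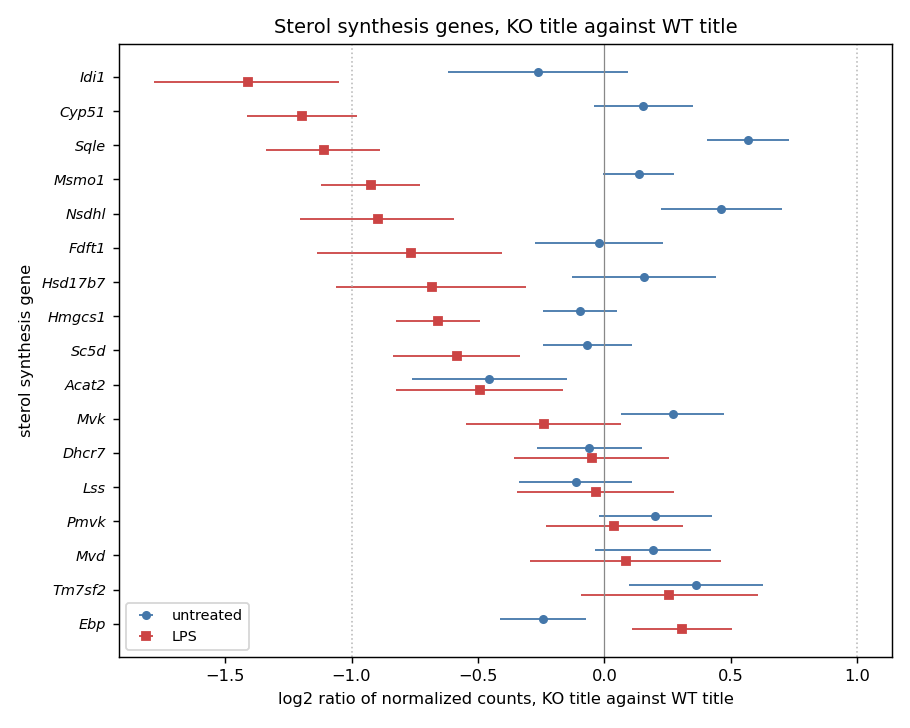
Log2 ratio of normalized counts, KO title against WT title, for the 17 sterol synthesis genes tested, untreated (blue circles) and after LPS (red squares); bars are 95% counting intervals, dotted lines mark 2-fold, and each symbol compares 1 library with 1 library. After LPS 13 of 17 genes lie below 0, with Idi1, Cyp51 and Sqle beyond 2-fold, while untreated 8 of 17 lie below 0.

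As a pathway, the 17 sterol enzymes tested were lowest in the LPS library titled KO for 11 genes and highest there for 1, Ebp. The LPS library titled WT was the highest for 7 of 17. The same counts over all genes were not made, so these have no background beside them. The KO to WT ratio after LPS had a median of −0.58 log2 units, with 13 of 17 below 0, beside −0.02 over all genes, of which 51.5% were below 0. Untreated, the median was 0.13 and 8 of 17 were below 0, beside 0.03 and 45.9% over all genes. The enzymes were not alike. Idi1, Cyp51, Sqle, Msmo1 and Nsdhl had the ratios farthest below 0 after LPS, Fdft1 (squalene synthase), Hsd17b7, Hmgcs1, Sc5d and Acat2 had intervals wholly below 0, and those of Mvk, Dhcr7, Lss, Pmvk, Mvd and Tm7sf2 spanned no change. Hmgcs1, the HMG-CoA synthase gene whose upstream stretch holds the SRE letters, was at 32.2 and 30.1 CPM untreated and at 46.0 and 29.2 CPM after LPS in the WT and KO titles, a KO to WT ratio of 0.634 (0.565 to 0.712) after LPS. Ebp was the exception at 1.24 (1.08 to 1.42). Since these enzymes were measured in the same 2 libraries, they are not independent observations of a genotype.

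No effect of the titled genotype common to both treatments was called in the additive model. 0 of the 39 genes passed edgeR's adjusted p of 0.05, and the background was 0% of 13989 genes. At an unadjusted p under 0.05, 0 of the 39 and 39 of all genes (10 higher, 29 lower) passed, and DESeq2 and limma-voom also called 0 of the 39. Fads2 had the genotype effect of largest size (−1.31 log2 units, edgeR adjusted p = 1).

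Other genes of the same pathways, from 2 lists, were read in the same model. Of 13 tested fatty acid genes 2 rose, Acsl1 and Acsl4, and 0 fell, against 9.35% and 5.14% of all genes tested. Acsl1, a long-chain acyl-CoA synthetase gene, was at 44.4 and 45.9 CPM untreated and at 273 and 126 CPM after LPS (2.08 ± 0.35, edgeR adjusted p = 0.0237).

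Of 13 tested genes of the wider LXR system, 4 fell (30.8%), Arl4c, Rxra and Rxrb among them, and 0 rose. The shares over all genes tested were 5.14% and 9.35%. The LXR target Arl4c, a small GTPase gene, was at 192 and 208 CPM untreated and at 28.4 and 24.5 CPM after LPS (−2.88 ± 0.23, edgeR adjusted p = 0.00609). Rxra and Rxrb encode retinoid X receptors, the partners with which LXRs bind DNA. Rxra was at 123 and 88.0 CPM untreated and at 18.1 and 23.1 CPM after LPS (−2.31 ± 0.29, edgeR adjusted p = 0.0131), and Rxrb at 63.9 and 63.8 CPM untreated and at 22.0 and 23.4 CPM after LPS (−1.46 ± 0.20, edgeR adjusted p = 0.0156). In each of these 3 genes both LPS libraries lay below both untreated ones.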

How the data were processed

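Each of the 4 libraries was its own group. They were prepared from 3 µg of poly-T selected RNA and read in pairs of 125 or 150 bp, per the labels. The submitters' processing notes name HISAT2 2.0.5 and the mm10 genome. Per the file headers, the deposited table gave a count of reads for every gene in each library. FPKM values came from the authors too, with implied library sizes of 0.817 to 1.28 times the count totals. For pairs of libraries the deposited table also held the authors' log2 folds and p-values. Neither the counting program nor its strand setting is given in the sources used here. A further 8 per-sample columns went unused. The genes and lists were chosen with earlier results of these data known.

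Counts were scaled by TMM, with factors of 1.25 and 1.16 for the untreated WT and KO titles and 0.820 and 0.840 for their LPS libraries. Title and treatment were fitted additively by quasi-likelihood in edgeR 4.0.16 after filterByExpr, with Benjamini-Hochberg adjustment over 13989 genes and a threshold of 0.05. DESeq2 1.42.0 and limma-voom (limma 3.58.1) were alternatives, in R 4.3.3. Pairs of libraries were compared by log2 ratios with a prior count of 2, a mean of at least 1 CPM, a 2-fold threshold and an exact 95% binomial interval, and differences of ratios by a Poisson interval. Reads are not independent molecules, so intervals cover counting error only. A gene with 0 counts could be at up to 3 counts, or 0.108 to 0.184 CPM. Tables and plots used SciPy 1.17.1, pandas 2.3.3, matplotlib 3.10.9 and NumPy 2.4.6 under Python 3.11.15, and the steps were tested on simulated data. Values per library are given for genes that passed the additive model, passed the 2-fold rule or were the most abundant of their role. Further pathway genes were named by smallest p, up to 6, some of which are not reported here; Acsl4 was named after its values were seen. Genes given to show overlap, a position near a threshold or an opposite direction were chosen after their values were seen. Gene positions are the table's (mm10), 32 of 39 the same in GENCODE M21. Promoters are RefSeq's (GRCm38.p6).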

Additional observations from a re-analysis of the deposited data

Results flagged for a closer look

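For 7 genes the LPS ratio lay above even in one title and below it in the other, with a difference of at least 2-fold and a counting interval that left out 0. Each title gives 1 ratio, so the difference was not tested against replicates. The sides of even were read with TMM only, and library totals shifted the median LPS ratio by −0.60 in the WT title and −0.46 in the KO title. The KO title minus WT title difference of log2 ratios was −1.67 for Sqle, −1.34 for Cyp51, −1.06 for Msmo1 and −1.35 for Nsdhl, 4 enzymes that follow squalene synthesis. It was −2.73 for Scd1, which rests on 14 to 88 counts, and −1.52 for Abca1. Acss2 had the opposite sign, at 1.01. Lyz1, which is high in the untreated KO title and the LPS WT title, had a difference of −7.09, and its part in these values was not tested.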

How the results depend on the processing

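Each comparison has 1 library per group, so counting intervals, not replicate error, limit what can be said of the titles. No paired analysis was possible because the labels carry no replicate numbers and each group holds 1 library. With library totals, Apoe went from above to below the untreated libraries after LPS, and the mevalonate median from 0.03 to −0.54. For genes called in the additive model or by the 2-fold rule, the called effects kept their direction under each alternative. Genes not called did not all do so: 12 of the 39 LPS effects in the additive model lay above 0 with TMM and 3 with library totals. In the additive model, genes that rose numbered 1 with library totals and 1 at an adjusted p of 0.01, and genes that fell 10 with library totals, 6 without a filter, 6 with treatment only and 0 at 0.01. Leaving out 1 library in turn with treatment only gave 2 to 4 rising and 2 to 4 falling. Ch25h, Insig1 and Mylip kept their direction and side of the threshold with DESeq2 and limma-voom.

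With library totals, the WT title had 1 higher and 9 lower after LPS, the KO title 20 lower, and both LPS libraries were above for 2 genes and below for 28. Over all genes, the number lower after LPS went with that scaling from 1847 to 4116 in the WT title and from 2194 to 3934 in the KO title. At a 1.5-fold threshold the counts were 7 higher and 6 lower in the WT title, 20 lower in the KO title, 3 higher and 2 lower in the untreated KO title, and 12 lower in the LPS KO title. With a gap of 1.5-fold, 2 genes were above and 4 below. At a mean of at least 5 CPM, 3 were lower after LPS in the KO title, 0 higher untreated, 3 lower between titles after LPS and 1 more positive. Without the filter 2 were lower in the WT title and 1 lower in the untreated KO title. In the authors' FPKM with a pseudocount of 1, which shrinks low genes, 2 were higher in the WT title, 2 lower in the KO title, 0 higher untreated, 0 lower after LPS, 1 more positive and 5 less positive. Shares over all genes are not given for the counts of this section, so none of them is read as a result about these genes.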
